A study of Mus musculus with 16 samples.

Results

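The cells described here are gamma-delta T cells from mouse melanomas, 218 of 99357 cell barcodes that had 200 or more genes and no more than 10% mitochondrial UMIs in 8 single-cell RNA libraries. A barcode was counted as a member when it held at least 1 unique molecular identifier (UMI, 1 counted transcript) of Trdc, the constant region of the delta receptor chain, and at least 2 UMIs summed over the CD3 chains Cd3d, Cd3e and Cd3g. It also had to hold no UMI of Cd4, Cd8a, Cd8b1, Ncr1 or Klrb1c and at most 5 UMIs summed over C1qa, C1qb and C1qc. The members were thus chosen by their UMIs of these genes, whose levels follow from that choice and are given only as a description.

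C57BL/6J mice received Bro4.1 B16 melanoma cells under the skin, either control cells or cells without B2m, the light chain of MHC class I. Intraperitoneal doses of 100 µg, of either anti-CD40 or a rat IgG2a isotype control, followed on days 6, 9 and 12. CD45+ cells were taken from the tumours with magnetic beads on day 14. Mice of a group were marked with hashtag antibodies and pooled on 1 lane. Counted by the hashtags present, there were 5 control isotype mice in 2 pools and 2 control CD40 mice in 1 pool. There were 5 B2m-null isotype mice in 2 pools and 4 B2m-null CD40 mice in 2 pools. The labels list 3 hashtags per pool and 6 lanes hold 2, so the numbers of mice rest on the hashtags present. The control CD40 pool was run on 2 lanes that the labels call technical replicates, so it is 1 pool here, and what sets that pool apart cannot be told apart from its group. The sample labels write the B2m genotype with the mouse strain, while the design text places it in the implanted cells, which was followed.

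Gamma-delta T cells carry a T cell receptor of a gamma and a delta chain in place of the alpha and beta chains of CD4 and CD8 T cells, and most do not depend on classical MHC molecules to recognise a target. In mice they are commonly divided into cells that make interleukin-17, which often carry the scavenger receptor SCART1 (Cd163l1), and cells that make interferon-gamma and carry receptors of natural killer (NK) cells. In tumours, interleukin-17-making cells have been linked to the recruitment of myeloid cells, and interferon-making cells to the killing of tumour cells.

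Lane totals ran from 45985739 to 99264875 UMIs, and hashtags assigned between 27.9% and 90.7% of the barcodes of a lane, with the lowest share in B2m-null isotype replicate 1. Any pair of libraries shared 29 to 73 barcodes, the 2 technical lanes shared 55, and no member's barcode was found as a member in 2 libraries. The members held a median of 1738.5 UMIs, with a lowest value of 539. Among them, 6 members above 10000 UMIs held 23.6% of all their UMIs, and the 3 largest, with 24659 to 50645 UMIs, held 1202 of the 1218 UMIs of 5 melanoma genes found in the members. Of the 218 members, 190 were assigned to a mouse, 12 carried hashtags of more than 1 mouse and 16 stayed unassigned.

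The gamma constant genes are printed because they mark the receptor chain that the choice of members did not use, and because their similarity limits how their counts can be read. In mm10, Trdc lies on chromosome 14 from 54142851 to 54148868 on the plus strand. Tcrg-C1, Tcrg-C2 and Tcrg-C4 lie on chromosome 13 in the gamma receptor locus. The first 120 bases of the first coding exon are shown 5′ to 3′, from GENCODE transcripts of that build, at chr13:19214103-19214222 (plus strand) for Tcrg-C1, chr13:19307432-19307551 (minus strand) for Tcrg-C2 and chr13:19344558-19344677 (plus strand) for Tcrg-C4. Capitals mark bases that differ from Tcrg-C1.
Tcrg-C1: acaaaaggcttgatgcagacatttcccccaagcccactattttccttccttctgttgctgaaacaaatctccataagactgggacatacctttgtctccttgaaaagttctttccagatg
Tcrg-C2: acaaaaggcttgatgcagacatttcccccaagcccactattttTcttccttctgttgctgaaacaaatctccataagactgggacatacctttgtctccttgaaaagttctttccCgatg
Tcrg-C4: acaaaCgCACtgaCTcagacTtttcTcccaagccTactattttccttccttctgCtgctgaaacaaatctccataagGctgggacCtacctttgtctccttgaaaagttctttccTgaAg
In this stretch Tcrg-C2 differed from Tcrg-C1 at 2 bases and Tcrg-C4 at 14. Over the whole exon of 330 bases, Tcrg-C1 and Tcrg-C2 were 97.3% identical, and Tcrg-C4 shared 82.1% with Tcrg-C1. The libraries read the 3′ end of transcripts, and from the stop codon to the transcript end Tcrg-C1 and Tcrg-C2 were 93.5% identical, against 56.6% for Tcrg-C1 and Tcrg-C4. The split of counts between Tcrg-C1 and Tcrg-C2 is therefore uncertain, while Tcrg-C4 is the more distinct of the 3 genes.

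Gamma chain transcripts were frequent in the members and alpha chain transcripts were not. Tcrg-C1 was detected in 21.1% of the members, Tcrg-C2 in 17.4% and Tcrg-C4 in 26.6%, and at least 1 of them in 49.5%. The same share was 12.6% in CD8 T cells, 2.31% in conventional CD4 T cells and 4.20% in NK cells, each taken from the same libraries by a gate described with the comparison between cell types. Trac, the alpha chain constant region, was detected in 14.2% of the members, against 74.2% of CD8 T cells and 73.8% of conventional CD4 T cells. It was found in 55.5% of the 4272 cells that met every condition of the choice except that they held no Trdc.

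Trdc by itself was not a clean marker at this depth. It was found in 0.537% of 37086 cells with more than 5 C1q UMIs (median 6193.5 UMIs), a class that should lack it, in 1.25% of CD3-positive CD8 cells (median 2741.5 UMIs) and in 6.92% of NK cells (median 1565 UMIs). Among CD3-positive cells with no Cd4, Cd8, Ncr1 or Klrb1c the share was 4.86% (median 1526.5 UMIs). By pool, the share among the C1q cells ran from 0.249% in B2m-null CD40 replicate 1 to 1.23% in control isotype replicate 1. How many members took up free Trdc RNA was not tested. Members with more Trdc had gamma chain transcripts more often: at least 1 of the 3 gamma genes was detected in 40.4% of the 109 members with 1 Trdc UMI, 54.2% of the 59 with 2 and 64.0% of the 50 with 3 or more. Their median depths were 1565, 1771 and 2237.5 UMIs. Trac was found in 11.9%, 16.9% and 16% of these members.

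The cells just inside and just outside each edge of the choice were as follows. The 59 members that just reached a CD3 sum of 2 had a gamma chain UMI in 32.2% and Trac in 5.08%, and the 77 cells left out with a CD3 sum of 1 had them in 33.8% and 5.19%. Cd163l1 was found in 11.9% and 3.90% of these cells, and Il17a in 4 of the 59 and 0 of the 77. The 96 cells left out for a UMI of Ncr1 or Klrb1c had a gamma chain UMI in 59.4%, Trac in 19.8% and Klrd1, a lectin receptor of NK and cytotoxic cells, in 79.2%. The 137 cells left out for Cd8a or Cd8b1 had a gamma chain UMI in 45.3% and Trac in 76.6%. The 17 cells left out for Cd4 held Trac in 94.1%, and the 107 cells with a CD3 sum of 0 had a gamma chain UMI in 13.1%. The 43 cells left out for more than 5 C1q UMIs, with a median of 8740 UMIs, had a gamma chain UMI in 46.5%, Klrd1 in 53.5% and Cd163l1 in 11.6%, against 49.5%, 58.3% and 15.1% of the members.

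All 3 genes named for these cells were found in each pool, given here as CPM, the UMIs of a gene scaled to 1000000 UMIs of the members. Trdc stood at 491 CPM or more in each pool with a median of 631 CPM, as the choice requires. Tcrg-C1 stood at 66.8 CPM in control isotype replicate 1, 39.3 in control isotype replicate 2, 72.7 in the control CD40 pool, 144 and 117 in B2m-null isotype replicates 1 and 2, and 62.7 and 71.4 in B2m-null CD40 replicates 1 and 2. Cd163l1, on chromosome 7 from 140218267 to 140231145, stood at 60.1, 157, 109, 337, 154, 125 and 250 CPM in the same order. The highest values of Tcrg-C1 and Cd163l1 were both from B2m-null isotype replicate 1, which held only 6 members. A UMI of at least 1 gamma constant gene was found in 49.5% of the members and one of Cd163l1 in 15.1%, so these genes mark part of them. Trac was rare next to other T cells. Trbc2, the constant region of a beta chain, differed less, by -1.22 and -0.57 on the log2 scale from CD8 and conventional CD4 T cells.

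Cd163l1 marked a small set with an interleukin-17 profile. It was detected in 33 members, or 15.1%, against 0.398% of CD8 T cells, 0.992% of conventional CD4 T cells, 0.165% of NK cells and 0.113% of C1q cells. The split by Cd163l1 was made from the values themselves, so what follows describes these cells and was not tested. The cells with and without it had median depths of 1539 and 1781 UMIs.

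**Figure D1:**
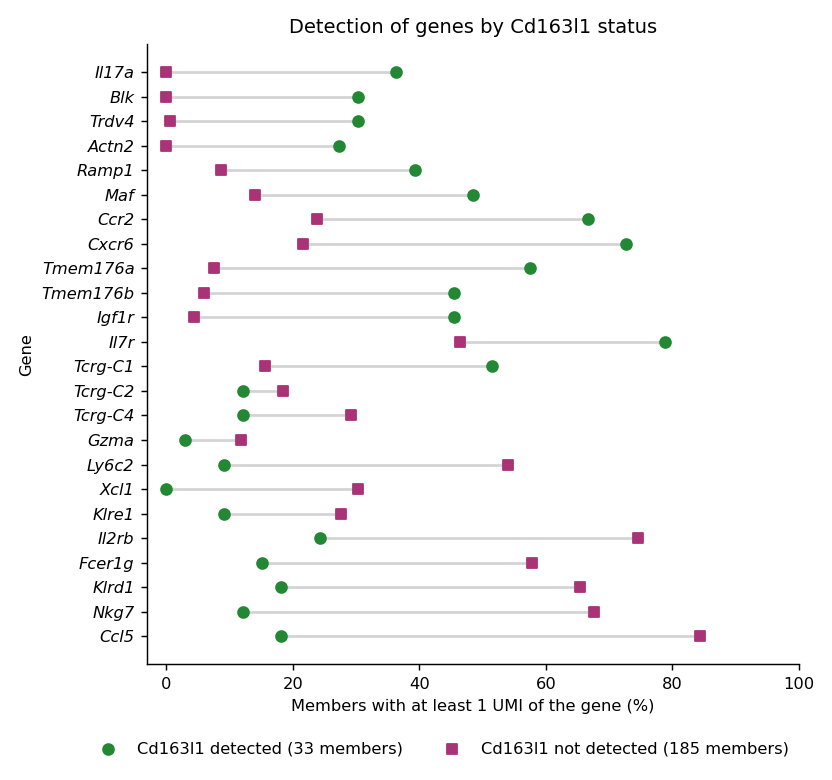
Share of members (%) with at least 1 UMI of each gene, for the 33 members with Cd163l1 (circles) and the 185 without (squares). Il17a, Blk, Trdv4 and Actn2 lie at or near 0% without Cd163l1, and Ccl5, Nkg7, Klrd1 and Il2rb lie far to the right in those cells.

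Il17a, the interleukin-17A gene, was detected in 12 members and all 12 held Cd163l1; it was detected in 0.0108% of C1q cells. Blk, a kinase required for the normal development of interleukin-17-making gamma-delta cells, was found in 10 of the 33 and in 0 of the 185. Trdv4, a variable gene of the delta chain, was found in 10 of 33 and 1 of 185. Receptors for inducing cytokines followed the same line, with Il1r1 in 6 and Il23r in 3 of the 33 cells and neither in the 185. The transcription factor genes of the type 17 list varied: Maf was found in 48.5% against 14.1%, Rora in 54.5% against 21.1%, Sox13 in 12.1% against 0.541% and Zbtb16 in 6.06% against 2.70%. Sox4 went the other way, with 0% of the 33 and 5.41% of the 185. At this depth a cell can lack a UMI of a low transcript such as Sox13 by sampling. Other products of the lineage were nearly absent, with Il22 in 1 member with Cd163l1, Ccr6 in 1 member without it and Il17f in 0 of 218, a count that allows up to 3 cells with a UMI.

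Further genes of the type 17 list, and Igf1r outside it, were found at higher shares in the cells with Cd163l1. Cxcr6, a chemokine receptor of tissue T cells, was detected in 72.7% of cells with Cd163l1 and 21.6% of those without. Ccr2, the receptor for monocyte-attracting chemokines, was detected in 66.7% and 23.8%. The ion channel genes Tmem176a and Tmem176b were found in 57.6% and 45.5%, against 7.57% and 5.95%. Il7r, the receptor for interleukin-7, was found in 78.8% and 46.5%, and Igf1r, the receptor for insulin-like growth factor, in 45.5% and 4.32%.

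The 185 members without Cd163l1 often held transcripts shared by NK and cytotoxic T cells, while effector genes were found in fewer of them. Ccl5, a chemokine of cytotoxic lymphocytes, was detected in 84.3% of them and 18.2% of the cells with Cd163l1. Il2rb, the receptor chain for interleukin-2 and interleukin-15, was found in 74.6% and 24.2%, and the granule gene Nkg7 in 67.6% and 12.1%. Klrd1 was found in 65.4% and 18.2%, and Fcer1g, the signalling chain of Fc receptors, in 57.8% and 15.2%. Xcl1, the chemokine that draws cross-presenting dendritic cells, was detected in 56 of the 185 and in 0 of the 33. Gzmb was found in 35 of the 185, Ifng in 27, Gzma in 22, Prf1 and Eomes in 20 each and Tbx21, the transcription factor T-bet, in 15. Genes of resting lymphocytes were also found there, Satb1 in 58.4%, Bcl2 in 53.0% and Tcf7 in 48.1%, against 24.2%, 21.2% and 42.4% of the cells with Cd163l1. Ccl5 had UMIs in 31.5% of C1q cells and 31.5% of 632 cells with at least 2 UMIs of the B cell gene Cd79a, so a Ccl5 UMI alone does not mark a cytotoxic cell. Counting members with a UMI of at least 2 of 12 genes of each program, 23 of 218 (10.6%) reached the type 17 count and 171 (78.4%) the type 1 count; 4 reached both and 28 neither. The type 17 count was reached by 0.0917% of C1q cells (median 6193.5 UMIs) and 4.43% of the Cd79a cells (median 3052.5 UMIs), which as B cells express Blk themselves. The type 1 count was reached by 18.2% and 28.2% of these cells and by 66.9% of conventional CD4 T cells, so it is a loose measure and not a cell type. Nkg7 had UMIs in 13.4% and 23.7%, Klrd1 in 9.09% and 14.6% and Il2rb in 11.1% and 21.2% of the C1q and Cd79a cells, and Fcer1g, which macrophages express, in 99.4% and 42.7%. Cd163l1 is among the type 17 genes and all 23 held it, and 8 cells with Cd163l1 reached the type 1 count.

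**Figure D2:**
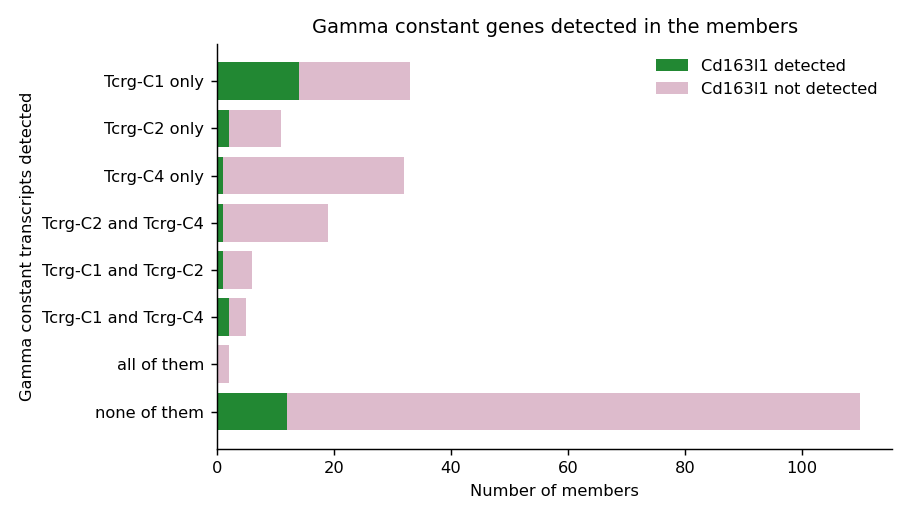
Number of members (horizontal axis) by the gamma constant transcripts detected in them, split by detection of Cd163l1. Of the 33 members with Tcrg-C1 alone 14 held Cd163l1, and of the 32 with Tcrg-C4 alone 1 did.

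The gamma constant genes detected differed between these sets, a difference that was not tested. Of the 33 members in which Tcrg-C1 was the only gamma constant gene detected, 14 held Cd163l1, 7 held Il17a and 16 reached the type 1 count. Of the 32 with Tcrg-C4 alone, 1 held Cd163l1, 0 held Il17a and 29 reached the type 1 count. The 19 members with both Tcrg-C2 and Tcrg-C4 were like the latter, with 1 holding Cd163l1 and 18 reaching the type 1 count. Of the 5 members with both Tcrg-C1 and Tcrg-C4, 2 held Cd163l1, the same number held Il17a and 3 reached the type 1 count. Of the 11 with Tcrg-C2 alone, 2 held Cd163l1 and 9 reached the type 1 count. Of the 6 with both Tcrg-C1 and Tcrg-C2, 1 held Cd163l1 and 4 reached the type 1 count. No gamma constant gene was detected in 110 members, of which 12 held Cd163l1 and 90 (81.8%) reached the type 1 count. That share was 48.5% with Tcrg-C1 alone, 90.6% with Tcrg-C4 alone and 78.4% over all members, so the members with Tcrg-C1 alone stood farther from the whole.

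Both counts were reached in every pool. The type 17 count was reached by 3 of 50 members in control isotype replicate 1, 2 of 32 in control isotype replicate 2, 4 of 35 in the control CD40 pool, 3 of 6 and 7 of 53 in B2m-null isotype replicates 1 and 2, and 2 of 20 and 2 of 22 in B2m-null CD40 replicates 1 and 2. Il17a was detected in 2, 1, 3, 2, 4, 0 and 0 members in that order. It was thus not found in the 42 members of the B2m-null CD40 pools, whose exact 95% binomial upper limits were 16.8% and 15.4%, and the share in the other pools ran from 3.13% to 33.3%. These limits cover counting error among cells only, and Il17a was not tested between groups. The type 1 count was reached by 42, 24, 27, 3, 39, 16 and 20 members in the same order.

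The first question of the design is whether anti-CD40 or the tumour's B2m changed how many of these cells were present. As a share of all filtered CD45+ cells of a mouse, they made up 0.444%, 0.318% and 0.331% in the mice of control isotype replicate 1 and 0.223% and 0.480% in those of replicate 2, and 0.235% and 0.102% in the 2 control CD40 mice. The mean was 0.169% ± 0.0943 (SD, n = 2) under CD40 and 0.359% ± 0.104 (SD, n = 5) under isotype, with overlapping ranges and an exact two-sided permutation p of 0.143. In B2m-null tumours the isotype mice stood at 0.0531%, 0% and 0% in replicate 1, where 5 of the 6 members of the pool had no mouse assigned and 1 member is all these values rest on, and 0.640% and 0.281% in replicate 2, and the CD40 mice at 0.365% and 0.132% in replicate 1 and 0.227% and 0.140% in replicate 2. The 2 mice at 0% had so few cells that shares up to 0.704% and 0.287% were allowed by counting error, which is the only error that such limits and all binomial intervals here cover. The B2m-null isotype range held the whole CD40 range, with means of 0.195% and 0.216% and an exact permutation p of 0.881.

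**Figure D3:**
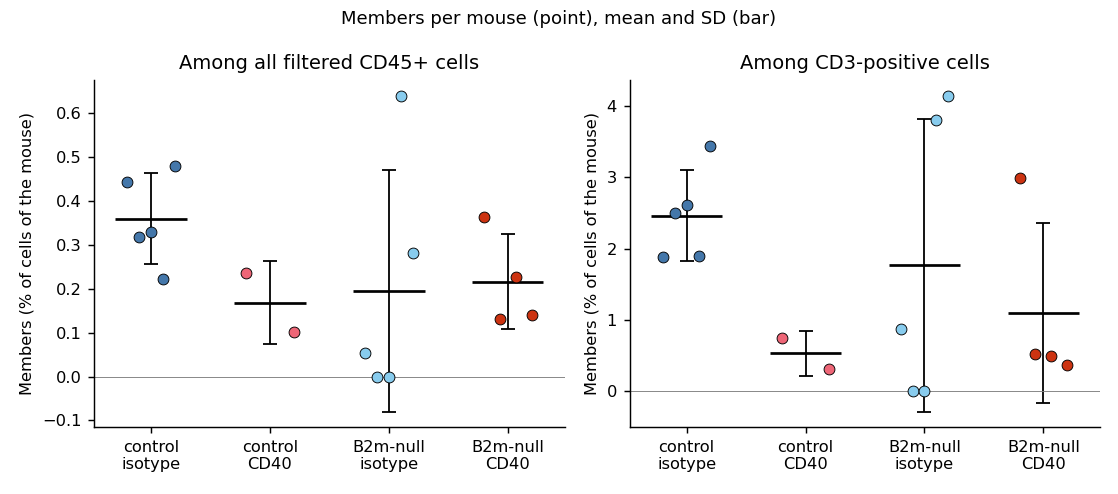
Members as a share (%) of all filtered CD45+ cells (left) and of CD3-positive cells (right); each point is a mouse, and the bar and whiskers are mean and SD. Among CD3-positive cells the 2 control CD40 mice lie below all 5 control isotype mice, and the B2m-null groups overlap.

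Among CD3-positive cells (CD3 sum of at least 2, C1q sum of at most 5), the members' share was lower in each control CD40 mouse than in any control isotype mouse. It was 1.88%, 2.5%, 2.61%, 1.89% and 3.44% in the 5 isotype mice and 0.751% and 0.308% in the 2 CD40 mice. The difference of means was -1.94 percentage points. The exact two-sided permutation p was 0.0476, the smallest that 21 arrangements allow, and 0.762 after Benjamini-Hochberg adjustment over 16 share tests, so it did not pass. With 2 Trdc UMIs asked for the difference was -0.812 points, and with a gamma constant UMI asked for -0.611 points. The first setting left out 109 of the 218 members and the second kept 108, with the CD3-positive cells unchanged. A smaller difference in points there does not by itself show a weaker relative change. The counts behind the ratio were as follows. CD3-positive cells numbered 2319 of 15652 and 1296 of 10656 filtered cells in the control isotype pools and 8404 of 26490 in the control CD40 pool, which was run on 2 lanes. The members numbered 50, 32 and 35, or 0.319%, 0.300% and 0.132% of the filtered cells. Filtered cells of these pools had medians of 3048.5, 3978 and 2013 UMIs. Trdc was found in 1.23%, 0.533% and 0.332% of their C1q cells. With cells thinned to 1000 UMIs, the share among CD3-positive cells was 1.61% to 2.89% in the isotype mice and 0.631% and 0.180% in the CD40 mice. Thinning left out the 11.6% and 24.0% of cells under 1000 UMIs in these groups. The part of depth and of free Trdc RNA in the difference was not tested. In B2m-null tumours, without thinning, the shares were 0.877%, 0%, 0%, 3.81% and 4.15% under isotype and 2.99%, 0.528%, 0.491% and 0.363% under CD40. These overlap (exact permutation p = 0.603). The isotype values rest on 114, 27, 42, 945 and 265 CD3-positive cells in that order, and each mouse has equal weight in the test. The values of isotype replicate 2 lay above those of every CD40 mouse, while those of replicate 1 rest on 1 member. Between B2m-null and control tumours the exact permutation p was 0.214 (all cells) and 0.500 (CD3-positive cells) under isotype, and 0.667 and 0.800 under CD40. No adjusted value among the 16 tests was below 0.762, and that family includes the shares of type 17 and type 1 members.

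The shares of members with each program gave no test that passed. The type 17 share averaged 12.2% ± 1.57 (SD, n = 2) in the control CD40 mice and 7.01% ± 5.26 (SD, n = 5) in the control isotype mice (exact permutation p = 0.286). The type 1 share averaged 75.6% ± 3.14 and 81.9% ± 8.63 in the same mice (exact permutation p = 0.381). For B2m-null CD40 only 1 mouse had the 10 members asked for, with 1 arrangement in 3 as the smallest exact p, 0.333, so no difference from it could pass. Its type 1 share of 93.3% lay above the 69.4% and 81.8% of the B2m-null isotype mice and the 73.3% and 77.8% of the control CD40 mice. Its type 17 share of 6.67% lay below the 9.09% and 16.7%, and the 11.1% and 13.3%, of the same groups. Mouse 1 of control isotype replicate 1 had the same values, 93.3% and 6.67%.

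The next comparison sets the members against 3 other lymphocyte gates from the same pools, to show which genes are higher or lower in them. The CD8 T cell gate (13081 cells) asked for a UMI of Cd8a or Cd8b1, the conventional CD4 T cell gate (1210 cells) for Cd4 without Foxp3, both with a CD3 sum of at least 2 and no Trdc, Ncr1, Klrb1c or UMI of the other coreceptor. The NK gate (2427 cells) asked for Ncr1 or Klrb1c with a CD3 sum of 0, and all gates allowed at most 5 C1q UMIs. UMIs were summed per pool and tested with edgeR's quasi-likelihood test with the pool as a block and Benjamini-Hochberg adjustment, as for every adjusted p in the gate comparisons. Of 7884 genes tested, 155 were higher (1.97%) and 336 lower (4.26%) in the members than in CD8 T cells, together 6.23% called. Against conventional CD4 T cells 118 were higher (1.5%) and 287 lower (3.64%), together 5.14%, and against NK cells 59 (0.748%) and 137 (1.74%), together 2.49%. With the RLE scaling the splits were 233 and 220, 178 and 168, and 76 and 90, so the excess of lower genes depends on the scaling, which moved the median of all genes by 0.09 to 0.10 on the log2 scale. Without B2m-null isotype replicate 2 the numbers of called genes were 263, 197 and 122, and without the pool as a block 202, 164 and 108. Genes of the gates themselves were not called. The median depth was 1738.5 UMIs in the members, 2528 in CD8 T cells, 2400 in conventional CD4 T cells and 1565 in NK cells. With each cell thinned to 1000 UMIs after gating, 195, 205 and 157 of 3808 genes were called. Whether asking for no coreceptor UMI favoured smaller cells among the members was not tested.

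**Figure D4:**
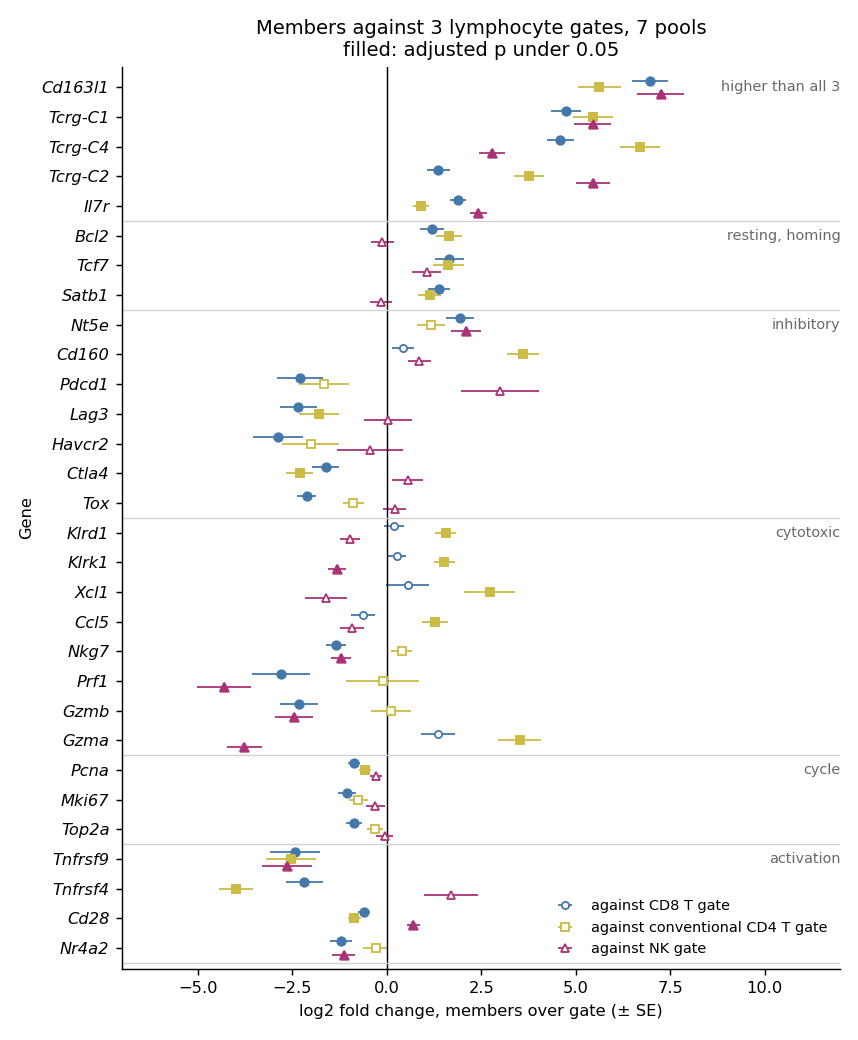
Log2 fold change (horizontal axis, ± SE) of named genes in the members over each of 3 lymphocyte gates, 7 pools; filled symbols have an adjusted p under 0.05. Cd163l1 and the gamma constant genes lie to the right against each gate, inhibitory receptor genes mostly to the left against CD8 T cells, and cell cycle genes to the left of 0.

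Among the 13 genes higher than in all 3 gates were all 3 gamma constant genes that could be tested, of 15 receptor genes in the list. Tcrg-C4 ran from 48.1 to 250 CPM over the 7 pools with a median of 84.8 CPM, and its mean in the gates was at most 17.5 CPM, in NK cells. Its log2 difference was 4.59 ± 0.36 (SE) against CD8 T cells, 6.70 ± 0.53 against conventional CD4 T cells and 2.79 ± 0.35 against NK cells, with adjusted p at most 1.26e-06. Tcrg-C1 was higher by 4.74, 5.45 and 5.44 (adjusted p at most 1.71e-08) and Cd163l1 by 6.97, 5.62 and 7.24 (adjusted p at most 2.25e-08). Tcrg-C2 was higher by 1.37 against CD8 T cells (adjusted p 0.00395), less than by 3.77 and 5.45 against the other gates.

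Il7r was higher than in every gate. In the members it stood at 304 to 674 CPM with a median of 472 CPM, while the gate pools ranged up to 166 CPM in CD8 T cells, 327 in conventional CD4 T cells and 116 in NK cells. The log2 differences were 1.89 ± 0.21, 0.92 ± 0.21 and 2.42 ± 0.22, with adjusted p of 2.45e-06, 0.0103 and 6.98e-08. The members and the conventional CD4 T cells overlapped between pools and the other gates did not. Igf1r, at up to 89.3 CPM, was also higher than in all gates (2.67, 1.88 and 2.15, adjusted p at most 0.0113). Igf1r was below the level asked of a named gene and was chosen after its values were seen. Sh3bp5, an adaptor of tyrosine kinase signalling, was higher by 1.89, 1.83 and 2.39 (adjusted p at most 0.00653). Mrpl2, Znrf1 and Fam241a were higher by 0.89 to 1.35, calls on all gates that held in at most 8 of the 15 alternative settings, and Cd209d, higher by 1.77 to 3.08, turned lower when 2 Trdc UMIs were asked for.

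Some genes of resting, recirculating lymphocytes were higher than in both alpha-beta T cell gates. Of the 7 tested genes of that list, 3 were higher and 0 lower against CD8 T cells and the same counts held against conventional CD4 T cells, with list medians of 1.20 and 1.13 where the medians of all genes were -0.08 and -0.09. Tcf7, a transcription factor of naive and memory T cells, ran from 182 to 292 CPM with a median of 254 CPM in the members, and averaged 69.0 CPM in CD8 T cells and 72.9 CPM in conventional CD4 T cells. It was higher by 1.65 ± 0.38 and 1.63 ± 0.41 (adjusted p 0.0125 and 0.0255), calls that held in 11 and 8 of 15 alternative settings. The survival gene Bcl2 was higher by 1.20 and 1.65, and the chromatin organiser Satb1 by 1.38 and 1.13. The Bcl2 calls held in 9 and 14 settings and the Satb1 calls in 14 and 8. Against NK cells none of the 7 passed, and Bcl2 and Satb1 differed by -0.12 and -0.16.

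Of the 8 tested inhibitory genes, associated with T cell exhaustion, 5 were lower and 1 higher than in CD8 T cells, with a list median of -1.86. Pdcd1, which encodes PD-1, stood at 0 to 53.6 CPM with a median of 20.9 CPM in the members and at 86.7 to 220 CPM in the CD8 T cell pools, so the pools did not overlap; it differed by -2.29 ± 0.61 on the log2 scale (adjusted p 0.0277), a call that held in 8 of 15 alternative settings. Tox, a transcription factor of exhausted cells, differed by -2.12 ± 0.25 (adjusted p 1.13e-06), Lag3 by -2.34, Havcr2 by -2.88 and Ctla4 by -1.61. Nt5e, the ecto-enzyme CD73, was the gene of this list that was higher, by 1.94 against CD8 T cells and 2.09 against NK cells (adjusted p 0.000967 and 0.000944), with 1.17 and an adjusted p of 0.0606 against conventional CD4 T cells. Against the latter Ctla4 (-2.30) was lower and Cd160 higher by 3.60 in all 15 settings, while Lag3 (-1.80) was called in 4 of them (adjusted p up to 0.289).

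The cytotoxic list placed the members between the gates. Of its 26 genes, 8 were higher and 0 lower than in conventional CD4 T cells, 0 higher and 6 lower than in CD8 T cells, and 1 higher and 9 lower than in NK cells, with list medians of 0.42, -0.17 and -1.15. The choice left out 96 cells with Trdc and CD3 for a UMI of Ncr1 or Klrb1c, which the NK gate asks for. Differences from NK cells can thus follow in part from the gates. Against conventional CD4 T cells Klrd1 was higher by 1.56, Klre1, another lectin receptor, by 3.54, Xcl1 by 2.72 and Ccl5 by 1.28, the latter called in 6 of 15 alternative settings. Gzma, the protease granzyme A, was higher by 3.51 ± 0.56 (adjusted p 0.000899) than in conventional CD4 T cells and differed by -3.77 ± 0.46 from NK cells (adjusted p 4.18e-05). Against CD8 T cells it differed by 1.36 with an adjusted p of 0.0778. Prf1, the pore-forming perforin, averaged 36.6 CPM in the members, 234 CPM in CD8 T cells and 612 CPM in NK cells, and differed by -2.80 ± 0.77 from CD8 T cells (adjusted p 0.0342) and by -4.30 ± 0.72 from NK cells (adjusted p 0.00142). Gzmb and Nkg7 were lower than in both of these gates, with differences of -2.32 and -2.46 for Gzmb and -1.34 and -1.21 for Nkg7. Ifng, interferon-gamma itself, differed by -2.56 from CD8 T cells (adjusted p 0.0453). That call held in 3 of 15 alternative settings, and that of Prf1 against CD8 T cells in 7.

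The type 17 list split by gate. Of its 17 tested genes, 4 were higher and 0 lower against CD8 T cells (Cd163l1, Il7r, Ltb4r1 and Ramp1), 2 higher and 3 lower against conventional CD4 T cells, and 4 higher and 1 lower against NK cells. The 3 genes lower than in conventional CD4 T cells were Icos (-1.65), S100a4 (-1.12) and Maf (-1.40), which T helper cells also express, and the gene lower than in NK cells was Ccr2 (-1.40). Il17a and Blk did not pass the filter on low counts.

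Most cell cycle genes and some activation genes were lower than in CD8 T cells. Of 18 cell cycle genes, 12 were lower against CD8 T cells, 4 against conventional CD4 T cells and 0 against NK cells, and none was higher. The cells of both T cell gates were deeper than the members (medians of 2528 and 2400 against 1738.5 UMIs). The part of cell size in these differences was not tested. Hmgb2, a chromatin protein of dividing cells, differed by -1.16 ± 0.13 from CD8 T cells (adjusted p 1.13e-06), Mki67 by -1.06 and Pcna, the replication clamp, by -0.88. Of 16 activation genes, 1 was higher and 5 lower against CD8 T cells, 0 and 8 against conventional CD4 T cells and 1 and 2 against NK cells. Tnfrsf4, the costimulatory receptor OX40, differed by -2.18 and -3.98 from the T cell gates. Tnfrsf9, the receptor 4-1BB, was lower than in all 3 gates (-2.43, -2.53 and -2.64), a call on all gates that held in 4 of 15 alternative settings. Among 25 genes lower than in every gate, Actb did so in all 15 settings, and Lgals1, a galectin of activated T cells, and Bhlhe40, an activation-induced transcription factor, in 13 each. Lgals1 differed by -0.92, -1.05 and -0.78 and Bhlhe40 by -1.02, -1.12 and -1.24. Ccl22, a chemokine of dendritic cells, differed by -4.14, -4.41 and -4.49 and had UMIs in 0.917% of the members.

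Of the other gene lists, metabolism genes were lower in part, 5 of 16 against CD8 T cells, 6 against conventional CD4 T cells and 1 against NK cells, and 0 were higher. Of 22 interferon-stimulated genes, 1 was higher and 1 lower than in CD8 T cells, 2 were lower than in conventional CD4 T cells and 0 passed against NK cells, where 6.23%, 5.14% and 2.49% of all genes were called. Of 16 cytokine signalling genes 0 were higher and 1 lower than in CD8 T cells, 1 and 1 in conventional CD4 T cells and 0 in NK cells. Of 14 stress and dissociation genes, 3 were higher and 1 lower than in CD8 T cells, with Jun higher by 0.75. Against conventional CD4 T cells 0 were higher and 2 lower (Jund and Dusp1), and against NK cells 0 and 1 (Jund).

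Markers of other cell types were checked in the same sums. Of 5 alpha-beta T cell genes, 4 were lower than in both T cell gates and 4 were higher than in NK cells. Trac stood at 0 to 232 CPM with a median of 74.3 CPM. It differed by -2.56 ± 0.30 from CD8 T cells (adjusted p 2.62e-05), -2.43 from conventional CD4 T cells and 2.58 from NK cells. The lower calls of Trbc2 against CD8 and conventional CD4 T cells held in 14 and 5 of 15 alternative settings. Those of Cd6 held in 4 and 15. All 10 NK and ILC1 genes were lower than in NK cells, 1 (Klra7) was higher than in CD8 T cells, 3 were higher than in conventional CD4 T cells, and Klra8 was not detected. The members had to lack Ncr1 and Klrb1c, while the NK gate asked for a UMI of either. Lower levels of genes expressed along with them can follow from the gates, so this is no independent check. Regulatory T cell genes were detected (4 of 4), and 1 of the 3 tested was lower than in CD8 T cells, 2 than in conventional CD4 T cells and Ikzf2 was higher than in NK cells. The macrophage list was detected in full, 8 of 8, with summed levels of 874 to 3519 CPM in the control isotype pools, 715 CPM in the control CD40 pool, 1438 to 1589 in the B2m-null isotype pools and 839 to 3658 in the B2m-null CD40 pools, and none of its genes passed against any gate. The dendritic list was detected at 8 of 9 with Siglech at 0, and summed to 1120 to 5568, 388, 3942 to 13191 and 857 to 6145 CPM in these groups; Cd209a was higher than in CD8 T cells. The B cell list summed to at most 304 CPM and the neutrophil list to at most 17.9 CPM, with S100a9 and Retnlg at 0. Il13, Il5 and Calca of the ILC2 list and all 4 mast cell and basophil genes were at 0, Il1rl1 and Gata3 were lower than in conventional CD4 T cells, and the ILC3 list had 3 genes detected and none called. The 5 melanoma genes summed to 1882 CPM over all members and 32.4 CPM without the 6 members above 10000 UMIs. Of the 5 fibroblast and endothelial genes 3 were detected, and Pecam1 was higher than in CD8 T cells. The part of these transcripts in the results was not tested.

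The last question is what anti-CD40 and tumour B2m changed within the members. UMIs were summed over the members of each mouse with at least 10 of them, which left 10 mice and 169 members: 5 control isotype, 2 control CD40, 2 B2m-null isotype from 1 pool, and 1 B2m-null CD40 mouse whose spread is assumed to be that of the others. In control tumours the members of the 2 CD40 mice had more Gzma and Ccl5 than those of the isotype mice. Both CD40 mice came from 1 pool, so treatment and pool cannot be told apart for these genes. Of 1477 genes tested, 8 were higher and 0 lower (0.542% called, edgeR's quasi-likelihood test with Benjamini-Hochberg adjustment, as in the rest of the comparison of groups), and in B2m-null tumours 2 were higher, Ccl5 and Gzma (0.135%). The latter contrast has 1 mouse under CD40 and so no spread of its own, and it is not a replicate of the former.

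Ccl5, on chromosome 11 from 83525778 to 83530518, stood at 1755, 1763, 1603, 1164 and 987 CPM in the members of the 5 control isotype mice and at 8911 and 4709 CPM in the 2 control CD40 mice. For B2m-null tumours the values were 1642 and 3188 CPM with isotype and 12603 CPM in the single mouse with CD40. Both control CD40 mice were above all control isotype mice. The B2m-null CD40 mouse was above both B2m-null isotype mice, but the members of the other B2m-null CD40 pool, whose mice had fewer than 10 members each, stood at 1777 CPM, between the 2 isotype mice. The log2 change was 2.22 ± 0.28 (adjusted p 0.00322) in control tumours and 2.47 ± 0.41 (adjusted p 0.0498) in B2m-null tumours. Per UMI sequenced, this was a ratio of 4.29 (95% counting interval 3.71 to 4.95) and 6.73 (5.85 to 7.76). The intervals take each UMI as independent and leave out the spread between cells and mice. A Ccl5 UMI was found in 56 of 74 members in the control isotype mice and 27 of 33 in the control CD40 mice. Among B cells, taken as cells with at least 2 Cd79a UMIs, the share was 32.4% and 14.3% in the control isotype pools (median 2092 and 1305 UMIs). It was 59.3% in the control CD40 pool (median 3119.5 UMIs). Among C1q cells it was 28.6%, 21.7% and 48.9%. In B2m-null tumours the B cell shares were 25% and 14.7% under isotype and 20.6% and 43.5% under CD40. The C1q shares there were 11.1% and 16.4%, and 32.1% and 48.8%. The shares of B cells and C1q cells with Ccl5 were thus high in the control CD40 pool and B2m-null CD40 replicate 2, where the members' level was high. In B2m-null CD40 replicate 1 the C1q share also lay above both isotype pools, while the members stood at 1777 CPM. Whether the B cells and C1q cells made this Ccl5 or took up free RNA was not tested, nor was the part of free RNA in the members' change.

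Gzma, on chromosome 13 from 113093825 to 113100981, rested on few cells. In the 5 control isotype mice it had 2 UMIs in all, in 1 of 14 members of 1 mouse, and 0 UMIs in the members of the remaining 4 mice. In the control CD40 mice it had 19 UMIs in 3 of 15 members (763 CPM) and 95 UMIs in 3 of 18 (1727 CPM), and 1 member alone held up to 67. In B2m-null tumours it had 13 UMIs in 3 of 36 members and 0 in 11 under isotype, and 97 UMIs in 7 of 15 members under CD40 (2430 CPM). The log2 change was 6.80 ± 0.80 (adjusted p 0.00162) and 5.19 ± 0.90 (adjusted p 0.0498), which depends on the low counts under isotype; the ratio per UMI was 163 (95% counting interval 44.0 to 1358) and 32.8 (18.3 to 63.7). These intervals take each UMI as independent, while the UMIs came from few cells, so they are too narrow. Members without a mouse in control isotype replicate 1 held 35 further Gzma UMIs, so that this pool as a whole stood at 247 CPM. Those UMIs are not in the ratio.

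**Figure D5:**
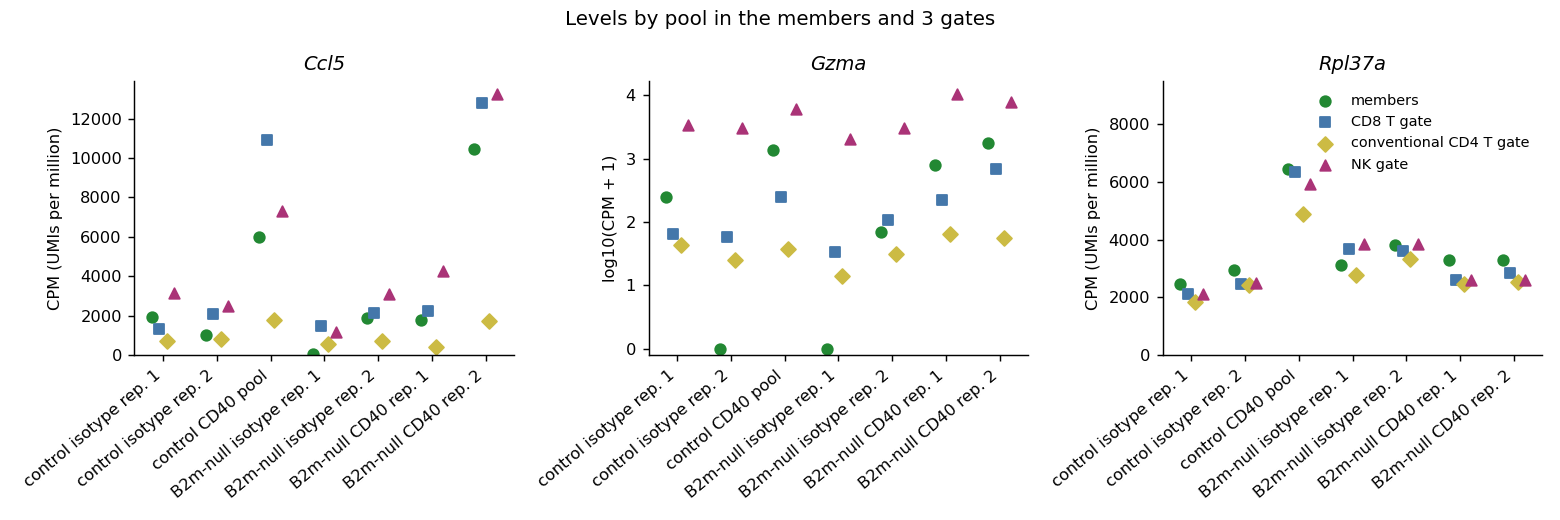
CPM of Ccl5 and Rpl37a and log10(CPM + 1) of Gzma (vertical axes) by pool in the members and in 3 lymphocyte gates. Ccl5 of the members is highest in the control CD40 pool and B2m-null CD40 replicate 2, where CD8 T cells are highest as well, and Rpl37a is highest in the control CD40 pool in the members and in each gate.

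Ccl5 was also high in other lymphocytes of the pools where it was high in the members. In CD8 T cells Ccl5 stood at 1337 and 2082 CPM in the control isotype pools and 10919 CPM in the control CD40 pool, and the members stood at 1903, 1012 and 6000 CPM. Conventional CD4 T cells stood at 686, 803 and 1773 CPM and NK cells at 3142, 2502 and 7335 CPM in these pools. B2m-null CD40 replicate 1 did not share it: the members were at 1777 CPM there and 10465 CPM in replicate 2, and CD8 T cells at 2227 and 12786 CPM. The 1 mouse that stands for B2m-null CD40 came from replicate 2. Gzma in the members was 794 CPM in B2m-null CD40 replicate 1 and 1768 CPM in replicate 2.

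The other 6 genes called in control tumours were 5 ribosomal protein genes and 2410006H16Rik. Rpl37a stood at 2730, 2368, 2416, 3928 and 2686 CPM in the control isotype mice and at 6904 and 5963 CPM in the control CD40 mice, without overlap (1.20 ± 0.18, adjusted p 0.00322). Rpl38 changed by 1.49, Rps21 by 1.05, Rpl41 by 0.95, Rpl39 by 0.86 and 2410006H16Rik by 1.70. The control CD40 pool also stood apart in Rpl37a in the 3 gates: it was 6361 CPM in its CD8 T cells, 4891 in its conventional CD4 T cells and 5924 in its NK cells, against 2100 and 2466, 1836 and 2408, and 2119 and 2510 CPM in the control isotype pools. Whether treatment or the pool underlies this cannot be told apart.

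These calls depended on how members and mice were taken. With the pool as the unit and all members taken in, those without a mouse or from mice with few members included, 0 genes were called in either tumour (127 and 117 of 2840 at an unadjusted p under 0.05). There the changes were 2.01 for Ccl5 and 3.36 for Gzma in control tumours and 2.5 and 4.49 in B2m-null tumours. Control CD40 was then 1 of 7 units, with no spread of its own, so the lack of calls cannot show that the changes were absent. Among members without Trac the change of Ccl5 in control tumours was 0.83 (adjusted p 0.300) and that of Gzma 5.50 (adjusted p 0.181). Without control isotype replicate 1 the changes in control tumours were 2.55 for Ccl5 (adjusted p 0.0600), 9.09 for Gzma (0.0345) and 0.86 for Rpl37a (0.497). In B2m-null tumours they were then 2.42 for Ccl5 (0.146) and 5.16 for Gzma (0.119), and with RLE scaling 2.40 and 5.14 (0.0594 each). Without either control CD40 mouse 2 genes were called in control tumours, and without the members above 10000 UMIs 27 were higher and 20 lower.

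Markers of other cells had the following values in these contrasts, with 0 genes called in any of these lists. The 5 melanoma genes had a median change of 6.44 in control tumours and -6.97 in B2m-null tumours. They summed to 0 to 46.7 CPM in the control isotype pools, 5333 CPM in the control CD40 pool, 0 to 4069 CPM in the B2m-null isotype pools and 35.7 to 41.8 CPM in the B2m-null CD40 pools. The 3 tested dendritic genes had medians of -3.18 and -3.94, and the 2 fibroblast and endothelial genes -4.10 and -2.77. The 3 tested macrophage genes had medians of -1.19 and -0.99, and the 1 tested B cell gene changed by -1.57 and 1.26. The 3 tested alpha-beta T cell genes had medians of 0.28 and 1.83, and that list summed to 432 to 855 CPM in the control isotype pools, 885 CPM in the control CD40 pool, 241 to 790 CPM in the B2m-null isotype pools and 711 to 1750 CPM in the B2m-null CD40 pools. Among members without Trac the change of Ccl5 was 0.83 in control and 1.83 in B2m-null tumours (adjusted p 0.300 and 0.527). Without the members above 10000 UMIs, which held most melanoma UMIs, Ccl5 changed by 2.09 and 2.16 (adjusted p 1.49e-10 and 5.51e-07) and Gzma by 6.91 (0.00827) and 4.59 (0.20). The part of the dendritic, macrophage, B cell, fibroblast and endothelial genes was not tested.

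No gene passed between B2m-null and control tumours under isotype or under CD40, nor for the difference of the CD40 effects; edgeR gave 54, 56 and 92 genes at an unadjusted p under 0.05, and DESeq2 called 0, 0 and 6. With the replicate number as a block, 4 genes were called under isotype, all higher in B2m-null tumours. Without that block, the smallest p under isotype was for Crip1, which stood at 500 to 1026 CPM in the control isotype mice and at 1180 and 3227 CPM with isotype in B2m-null tumours (1.48 ± 0.33, adjusted p 0.541). The next were Rpl38, Rps29, AY036118 and Rps21, with changes of 0.71 to 1.79. Under CD40 the first 5 were Serpinb6b (3.44), Eif2s2 (-3.10), Rps3 (1.09), Thbs1 (7.32) and Rpl37a (-1.01), each with an adjusted p of at least 0.828. For the difference of the CD40 effects they were Rps29, Rps21, Serpinb6b, Rpl37a and Rpl38, each with an adjusted p of 0.183. In B2m-null tumours the genes next to Ccl5 and Gzma were Gzmb, with a change of 3.86 (adjusted p 0.246), Nkg7 with 2.27 (adjusted p 0.367) and Pdia6 with -6.39 (adjusted p 0.407). Of the 3 gamma constant genes tested, 0 passed in any of the 5 contrasts, and of 13 tested cytotoxic genes Ccl5 and Gzma passed under CD40 in control tumours; they also passed in B2m-null tumours, with 1 CD40 mouse.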

How the data were processed

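The authors deposited counts of UMIs per gene and barcode, with hashtag counts in the same files, from 10x 3′ libraries with feature barcodes, per the labels; the submitters' processing notes name Cell Ranger 3.0.0, bcl2fastq 2.20.0.422 and mm10. Reads of near-identical genes can be lost or split in such counts. Hashtags were assigned by a Gaussian mixture (posterior 0.9, at least 20 counts), and a barcode with 2 hashtags more than 2.5 SD (from the median absolute deviation) above background was a doublet; the method was chosen after the hashtag counts were seen; the labels list 3 per pool, 6 lanes hold 2. Cells with hashtags of more than 1 mouse were kept among members summed by pool and left out by mouse; no other doublet caller was run. Shares were tested by exact permutation over mice, which are separate animals. UMI sums were tested with edgeR 4.0.16 (TMM, filterByExpr), with DESeq2 1.42.0 as an alternative, in R 4.3.3; the tests were checked on simulated data. Levels are CPM of summed UMIs. Genes were called at an adjusted p under 0.05, and the 8 strongest per group comparison (at least 20 CPM), the 10 per direction called against all 3 gates (at least 50 CPM) and list genes were named; with fewer than 5 calls, the 5 smallest p. The members and 23 gene lists were chosen with earlier results of these data known. Of 259 list genes, 258 were in the files; some items are not reported here.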

Additional observations from a re-analysis of the deposited data

Results flagged for a closer look

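In 26 sets of values from groups of 4 or 5 mice, 3 values stood far from the rest of their group by Dixon's test, which chance gives in about 1 of 20 groups. Gzma in the members of control isotype replicate 1 mouse 2 was 52.6 CPM, from 2 UMIs, where the other 4 mice of its group had 0, so that any UMI would have stood out by this test, and the zeros alone set this one. Rpl37a in control isotype replicate 2 mouse 1 was 3928 CPM, above 2368 to 2730 CPM in the others. The members' share of CD3-positive cells in B2m-null CD40 replicate 1 mouse 1 was 2.99%, where the other 3 mice of the group had 0.363% to 0.528%; this mouse had 9 members among 301 CD3-positive cells, against 1137 to 3052 CD3-positive cells in the others.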

How the results depend on the processing

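Each setting was changed with the rest kept, over 224 values of shares and 3171 values of named genes; 500 genes and 5% mitochondrial counts were set together, and the pool as the unit also took in all members. Of the share values 208 kept their direction and none passed adjustment. The other 16 turned, all in contrasts that had not passed. CD40 minus isotype in B2m-null tumours, among all cells, became -0.0639 points with the pool as the unit (and with all cells kept by pool), -0.0107 with 2 Trdc UMIs, -0.00434 without Trac, -0.0118 without B2m-null CD40 replicate 1 and -0.245 without B2m-null isotype replicate 1. Among CD3-positive cells it became 0.112 with 500 genes and 5% mitochondrial counts and 0.801 without B2m-null isotype replicate 2. B2m-null minus control under isotype, among CD3-positive cells, became 0.115 by pool, 0.113 with 2 Trdc UMIs, 0.122 with a gamma constant UMI and 1.52 without B2m-null isotype replicate 1, and 0.102 among all cells without that pool. Under CD40 it became -0.102 among CD3-positive cells without B2m-null CD40 replicate 1 and -0.0196 among all cells without control CD40 mouse 2. Among CD3-positive cells CD40 minus isotype in control tumours ran from -2.16 to -0.611 points over all alternatives, some of which kept fewer members. Over all pools and mice left out, CD40 minus isotype in B2m-null tumours ran from -0.245 to 0.198 points among all cells and -2.89 to 0.801 among CD3-positive cells, B2m-null minus control under isotype from -0.342 to 0.102 and -2.17 to 1.52, and under CD40 from -0.0196 to 0.114 and -0.102 to 1.23. Of the named values 2470 kept their call, 668 lost it, 29 gained one and 4 reversed: Cd209d with 2 Trdc UMIs (-0.26, -1.32 and -0.047 against CD8 T, conventional CD4 T and NK cells) and Trac against NK cells without Trac (-7.88, by construction).

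Counts of called genes moved as follows. With no low-count filter they were 1036 and 360 against CD8 T and NK cells, 35 and 5 for CD40 in control and B2m-null tumours, 15 and 4 for B2m-null against control under isotype and CD40, and 18 for the difference of the CD40 effects. Thinned to 1000 UMIs they were 195 and 205 against CD8 T and conventional CD4 T cells, 31 and 4 for CD40, 2 for B2m-null under CD40 and 5 for the difference. Without members above 10000 UMIs, a setting chosen after seeing the data, they were 47, 5, 3, 6 and 10 in the 5 group contrasts. With DESeq2 they were 21 and 1 for CD40 and 6 for the difference. With RLE scaling 0 genes were called for CD40 in B2m-null tumours. Without the control CD40 pool the counts were 232 and 126 against conventional CD4 T and NK cells. With the pool as the unit and all members, and in members without Trac, 0 were called for CD40 in either tumour. Leaving out a pool or mouse gave 263 to 537 genes against CD8 T cells, 197 to 338 against conventional CD4 T cells, 122 to 198 against NK cells, 2 to 26 for CD40 in control tumours, 0 to 8 in B2m-null tumours and 0 to 6 for the difference. The lowest counts in the gates came without B2m-null isotype replicate 2; for CD40 in control tumours 2 genes were called without control isotype replicate 1 or without either control CD40 mouse, 4 without B2m-null isotype replicate 2 and 26 without control isotype replicate 2, which also gave the 8 in B2m-null tumours and the 6 for the difference. Without control isotype replicate 2 the count against conventional CD4 T cells was 243. The cause was not tested. Without the pool as a block in the gate fits (no replicate block) the counts were 202, 164 and 108. Replicate numbers gave correlations of 0.130 to 0.173 between same-numbered pools in 3 pairings of groups, with only 2 numbers, so they are taken to share only a number; with the replicate block 4 genes were called for CD40 in B2m-null tumours and 4 for B2m-null under isotype. At least 20 members per mouse and at least 2 Trdc UMIs could not be fitted between groups, the thinned type shares were not run, and contrasts that lost a group with a left-out pool have no value. Members number only 6 to 53 per pool, and how this bears on the counts of calls was not tested.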

Other observations

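The 42 cells with more than 5 C1q UMIs that held Cd163l1 were 0.113% of that class, whose median depth was 6193.5 UMIs. Among the 4272 cells that met the choice of members except for Trdc, 36 held Cd163l1 and 6 held Il17a, and 7.96% held a gamma constant gene. The 2 control CD40 lanes, drawn from 1 pool, held 25 members among 12867 filtered cells and 10 among 13623, or 0.194% (exact 95% binomial interval 0.126 to 0.287) and 0.0734% (0.0352 to 0.135). Their filtered cells had medians of 2310 and 1792 UMIs.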
